A study of Homo sapiens with 6 samples.

Results

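Embryonic genome activation is the step at which an embryo begins to transcribe its own genome and stops relying on the maternal RNA of the egg, in humans at about the 8-cell stage. The set examined here holds 8 of its genes out of 19819 protein-coding genes with a canonical start on chromosomes 1 to 22 and X. The genes are ZSCAN4, LEUTX, TPRX1, DUXA, ARGFX, DPRX, KHDC1L and MBD3L2, and they were taken by name from a list and not by any measured value. LEUTX, TPRX1, DUXA, ARGFX and DPRX encode PRD-class homeodomain proteins, a fast-evolving group of transcription factors whose transcripts are found mainly in the cleavage-stage embryo. ZSCAN4 encodes a zinc finger protein with a SCAN domain, best known from studies of telomeres in mouse ES cells and of the cleavage embryo. KHDC1L belongs to a family with a KH domain, a fold that binds RNA, and MBD3L2 is a relative of MBD2 and MBD3 from the methyl-CpG-binding family. These genes are silent in most cells, and the CpGs at their promoters usually carry methyl groups there.

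CpG methylation was measured by whole-genome bisulfite sequencing of H9 cells, which are a long-established embryonic stem cell line, with 3 conventional and 3 reset libraries. Conventional cells grew in FGF/KSR, a medium with bFGF at 10 ng/ml and 20% KSR. Reset cells had been converted with doxycycline-inducible NANOG and KLF2 transgenes, and were then kept without transgene induction in t2iL+Gö, with 1 μM CHIR99021, 1 μM PD0325901, LIF and 5 μM Gö6983, an inhibitor of protein kinase C. Both groups grew on mouse embryonic fibroblast feeders in 5% oxygen. The libraries are described as biological replicates. It is not given in the labels whether each reset library stems from its own conversion of this 1 cell line. P-values therefore hold for these libraries and not for separate conversions. Those of the main model rest on call counts, with the spread between libraries moderated over all regions, so they do not measure that spread alone. RNA was not among the values analysed here, so no statement on expression is made.

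The libraries held 70186287 to 97822789 calls at the CpGs used, or 2.51 to 3.49 calls per CpG, and 84.3 to 84.6% of all calls were methylated in conventional cells against 29.5 to 30.3% in reset cells. Any gene must therefore be read against a genome that lost most of its methylation. Of the 8 promoters chosen as markers of the cell state, NANOG, SOX2 and LIN28A, genes of pluripotent cells in general, lay between 0.962 and 6.52% in conventional cells, and none of them passed the test. POU5F1, the fourth of these, fell from 14.8% to 2.68% (adjusted p = 0.00551). The promoters of the 4 naive markers fell, DPPA3 from 79.9% to 4.41%, TFCP2L1 from 22.7% to 3.74%, KLF17 from 96.2% to 28.5% and DPPA5 from 98.1% to 1.43%, where 67.4% of all coding promoters and 99.2% of those at 50% or more in conventional cells were called lower.

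A promoter here spans 1000 bp before and 500 bp after the canonical transcription start, and the gene body is the rest of the transcript. A level is the percentage of methylated calls among all calls of the region in 1 library. Coordinates are those of GRCh37, counted from 1. Of the 8 genes, 6 lie on chromosome 19. ZSCAN4 starts at chr19:58180303 on the plus strand and has 5 exons, LEUTX at chr19:40269494 (plus, 3 exons), TPRX1 at chr19:48307808 (minus, 3 exons), DUXA at chr19:57678853 (minus, 6 exons), DPRX at chr19:54135253 (plus, 3 exons) and MBD3L2 at chr19:7049332 (plus, 2 exons). ARGFX starts at chr3:121286796 (plus, 5 exons) and KHDC1L at chr6:73935219 (minus, 3 exons). The promoter and body of KHDC1L also overlap the protein-coding gene ENSG00000243501, so their calls belong to both annotations.

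All 8 promoters were poor in CpG. They held between 11 CpGs (DUXA) and 38 CpGs (DPRX), against a median of 80 over all coding promoters, and 24.6% of all coding promoters held 38 or fewer. The ratio of observed to expected CpGs lay between 0.208 in DUXA and 0.426 in KHDC1L.

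Of the 8 promoters, 7 could be tested, and all 7 were lower in reset than in conventional cells. They passed the test at adjusted p-values between 9.09e-09 and 0.000948, with no overlap between the groups (quasi-binomial model with limma, Benjamini-Hochberg over all promoters). Over all 19300 coding promoters tested, 67.4% were called lower and 68.9% had every reset library below every conventional library. Among the 5129 promoters at 50% or more in conventional cells, to which all 7 belong, 99.2% were called lower. The direction was therefore that of nearly all methylated promoters, and the genes differed from one another in how far they fell.

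**Figure D1:**
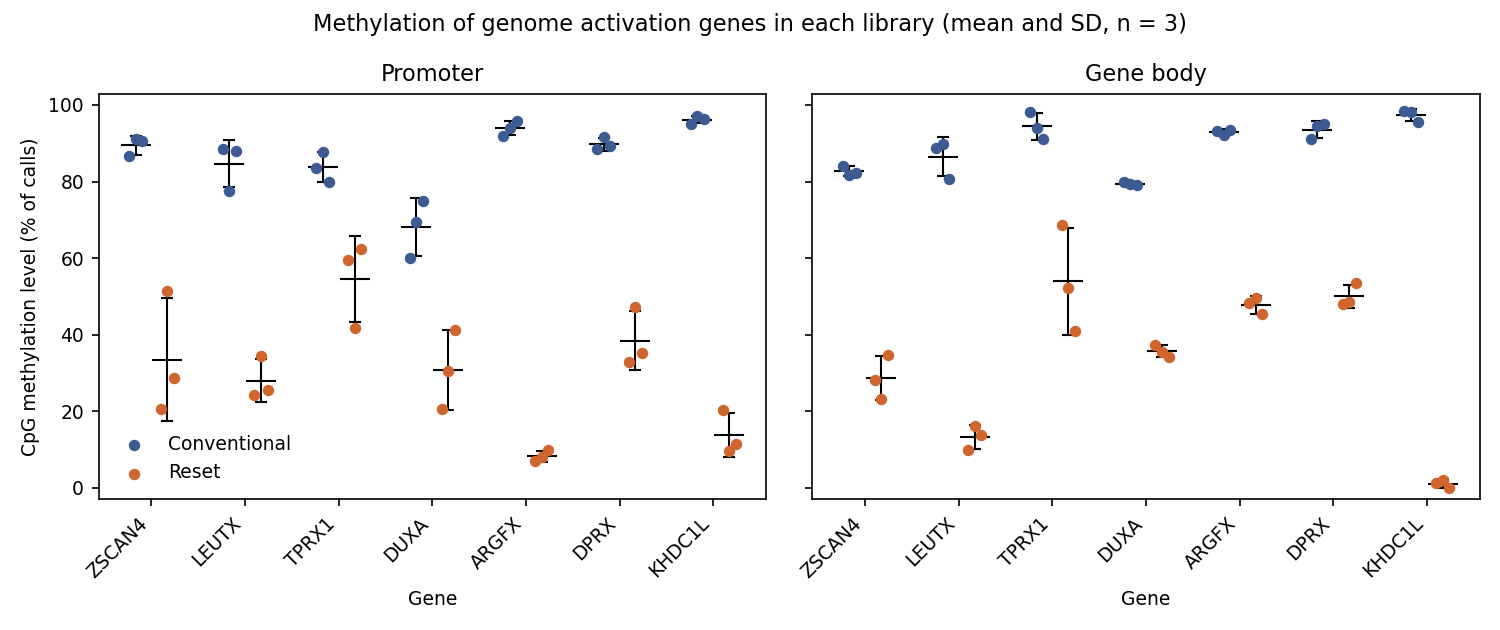
CpG methylation level (% of calls) of the promoter (left) and gene body (right) of the 7 measured genes, with 1 point per library in conventional (blue) and reset (orange) cells and bars for the mean and SD of 3 libraries. The groups do not overlap for any gene, and in reset cells the promoter means run from 8.24% in ARGFX to 54.5% in TPRX1 and the body means from 1.13% in KHDC1L to 53.9% in TPRX1.

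Among the homeobox genes, the ARGFX promoter lost the most. Its levels were 92, 94.0 and 95.7% in the conventional libraries and 6.9, 7.9 and 9.9% in the reset libraries, a fall from 93.9% ± 1.86 (SD, n = 3) to 8.24% ± 1.49. All 3 reset libraries lay under 10%, and 91.2% of the conventional level was lost (adjusted p = 9.74e-09). That share was larger than in 95.1% of the promoters at 50% or more. Of the 19300 promoters, 81 had a larger fall in percentage points.

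LEUTX, an activator of transcription in the early embryo, fell to a middle level. The LEUTX promoter stood at 88.5, 77.6 and 88.0% in conventional cells and at 24.1, 34.4 and 25.5% in reset cells, on average 84.7% ± 6.12 and 28.0% ± 5.6 (adjusted p = 1.76e-06). The share lost was 66.9%. DPRX went from 88.4, 91.6 and 89.2% to 32.8, 47.2 and 35.2%, on average from 89.7% ± 1.66 to 38.4% ± 7.68, a loss of 57.2% (adjusted p = 6.52e-07). Both values lay near the median loss of 62.9% among promoters at 50% or more, of which the 10th and 90th percentiles were 43.8 and 86.6%.

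DUXA began lowest. Its promoter, with 36 to 60 calls per library, stood at 60.0, 69.5 and 75.0% in conventional cells and at 20.5, 30.6 and 41.3% in reset cells. The mean fell from 68.2% ± 7.59 to 30.8% ± 10.4, a loss of 54.8% (adjusted p = 0.00068). The 3 libraries of each group were spread wide, but the lowest conventional library was still above the highest reset library.

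TPRX1 kept the most. The conventional libraries of its promoter stood at 83.6, 87.7 and 80% and the reset libraries at 59.5, 41.7 and 62.5%, so the mean went from 83.8% ± 3.86 to 54.5% ± 11.3 (adjusted p = 0.000948). The loss of 34.9% was larger than in only 3.10% of the promoters at 50% or more, and 219 of these 5129 promoters had a higher level in reset cells. It rests on 32 to 67 calls per library and on 23 of 28 CpGs with a call. The 1000 bp upstream of the start went from 84.7% to 54.7% with no overlap of the groups. Within 250 bp of the start the groups overlapped, at 85.7, 100 and 73.7% in conventional and 70, 23.8 and 80% in reset cells. These values rest on as few as 10 calls, and the 500 bp downstream had too few calls for a level. With the promoter extended to 2000 bp upstream, the fall was 48.4 points in place of 29.2, and the 1-kb bin beyond the canonical promoter had 37.1% in reset cells. Among the 50-base windows of the TPRX1 promoter, 29.7% occurred more than once in GRCh37 and 36.6% when every C was read as T, as bisulfite treatment makes it, and its depth of 1.73 calls per CpG and library was below the median of 2.34 over all promoters. The part of repeated sequence in its level was not tested.

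The ZSCAN4 promoter stood at 86.7, 91.2 and 90.5% in conventional cells and at 20.5, 51.4 and 28.6% in reset cells. The mean fell from 89.5% ± 2.46 to 33.5% ± 16, a loss of 62.6% (adjusted p = 1.02e-05). Reset replicate 2 was the highest of its group by more than 20 points, and without it the fall was 64.9 points in place of 56.0. Of its 50-base windows, 13.6% occurred more than once as written and 27.9% with C read as T.

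KHDC1L was, with ARGFX, the most demethylated promoter of the set. Its conventional libraries stood at 95.1, 97.1 and 96.4% and its reset libraries at 20.5, 9.5 and 11.6%, so that the mean fell from 96.2% ± 1.02 to 13.8% ± 5.81 and 85.6% of the level was lost (adjusted p = 9.09e-09). Reset replicate 1 was the highest of its group. The share lost was larger than in 88.8% of the promoters at 50% or more.

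In reset cells the order of the promoter means was ARGFX, KHDC1L, LEUTX, DUXA, ZSCAN4, DPRX and TPRX1. The libraries of neighbours in this order overlapped except between KHDC1L and LEUTX, where all reset libraries of KHDC1L were below all those of LEUTX. In conventional cells the order from low to high was DUXA, TPRX1, LEUTX, ZSCAN4, DPRX, ARGFX and KHDC1L, with separate ranges only between DUXA and TPRX1 and between DPRX and ARGFX.

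The median over the 7 promoters was 88.4, 91.2 and 89.2% in the conventional libraries and 20.5, 34.4 and 28.6% in the reset libraries (89.6% ± 1.46 and 27.9% ± 6.98, two-sided exact permutation p = 0.1, the least that 6 libraries can give). The promoters at 50% or more in conventional cells had medians of 88.1 and 31.4%. Of those, the ones with 38 or fewer CpGs numbered 4031 and lost a median of 63.4%, against 62.6% over the 7 genes. Only 6.50% of them were under 10% in reset cells, as ARGFX was, and 6.82% were at 50% or more, as TPRX1 was.

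**Figure D2:**
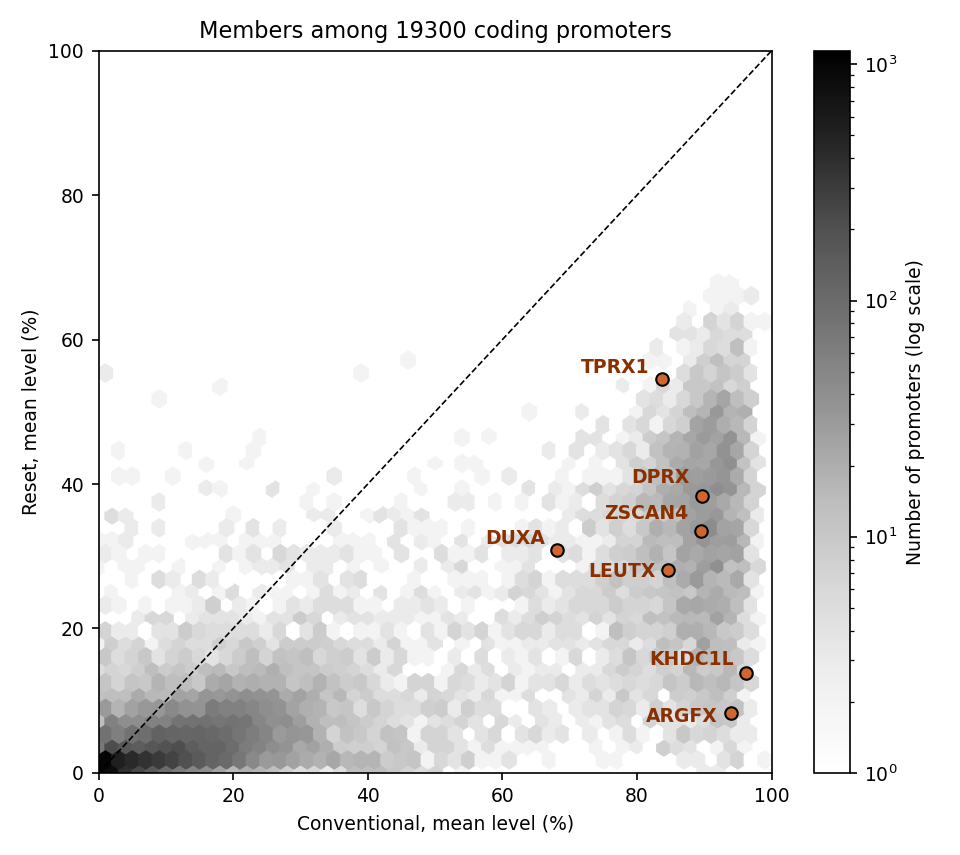
Mean level in reset cells (%) against mean level in conventional cells (%) for 19300 coding promoters, as a density in grey (number of promoters on a log scale), with the 7 measured genes as orange points and a dashed line of equal levels. All 7 points lie under the line, TPRX1 at the upper edge of the methylated promoters at 54.5%, and ARGFX and KHDC1L near their lower edge at 8.24 and 13.8%.

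The single CpGs showed how these means were made up. They were compared where both groups had at least 5 calls, with the calls of the 3 libraries pooled, and single values are coarse at this depth. In ARGFX all 20 CpGs were at 80% or more in conventional cells, 13 of them were under 10% in reset cells, and the highest stood at 23.5%. The 4 highest CpGs, at 18.8 to 23.5%, lay between -442 and -233 bp from the start. In KHDC1L all 33 CpGs were at 80% or more in conventional cells, and in reset cells 22 were under 10% while 5 stayed at 50% or more.

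The KHDC1L promoter was thus uneven in reset cells. The CpGs at -933 and -941 bp from the start kept 85.7 and 83.3%, on 6 of 7 and 5 of 6 calls. Those from -901 to -720 bp were mixed, at 12.5 to 57.1%, and those from -667 bp to the start had 22.2% or less. The 1000 bp upstream had 29.5, 15.6 and 28.8% in the reset libraries. The 500 bp downstream had 0% in each of them, with 0 of 27, 0 of 41 and 0 of 88 calls methylated, against 96.5% ± 3.57 in conventional cells. Together, 0 of 156 calls allow a level of up to 1.92%, an upper limit that covers counting error only and takes every call as independent. Single CpGs there had 4 to 12 pooled calls in reset cells, and 1 read can give calls at several CpGs. Where reads are shared, the limit is too low.

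The CpGs of ZSCAN4 and TPRX1 were mixed. In ZSCAN4, 22 CpGs had a median of 38.8% in reset cells, 3 were under 10% and 6 at 50% or more. In TPRX1, 12 CpGs had a median of 50%, none was under 10%, 9 were at 50% or more, and 1 was higher in reset than in conventional cells. In DPRX, 27 CpGs ranged from 0 to 88.9% with a median of 42.9%. The CpG at 0%, at -275 bp, had 0 of 8 calls methylated in conventional cells as well, and the next lowest stood at 7.69%. LEUTX (18 CpGs) and DUXA (11 CpGs) had medians of 26.1 and 33.3%, with 3 and 2 CpGs at 50% or more.

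**Figure D3:**
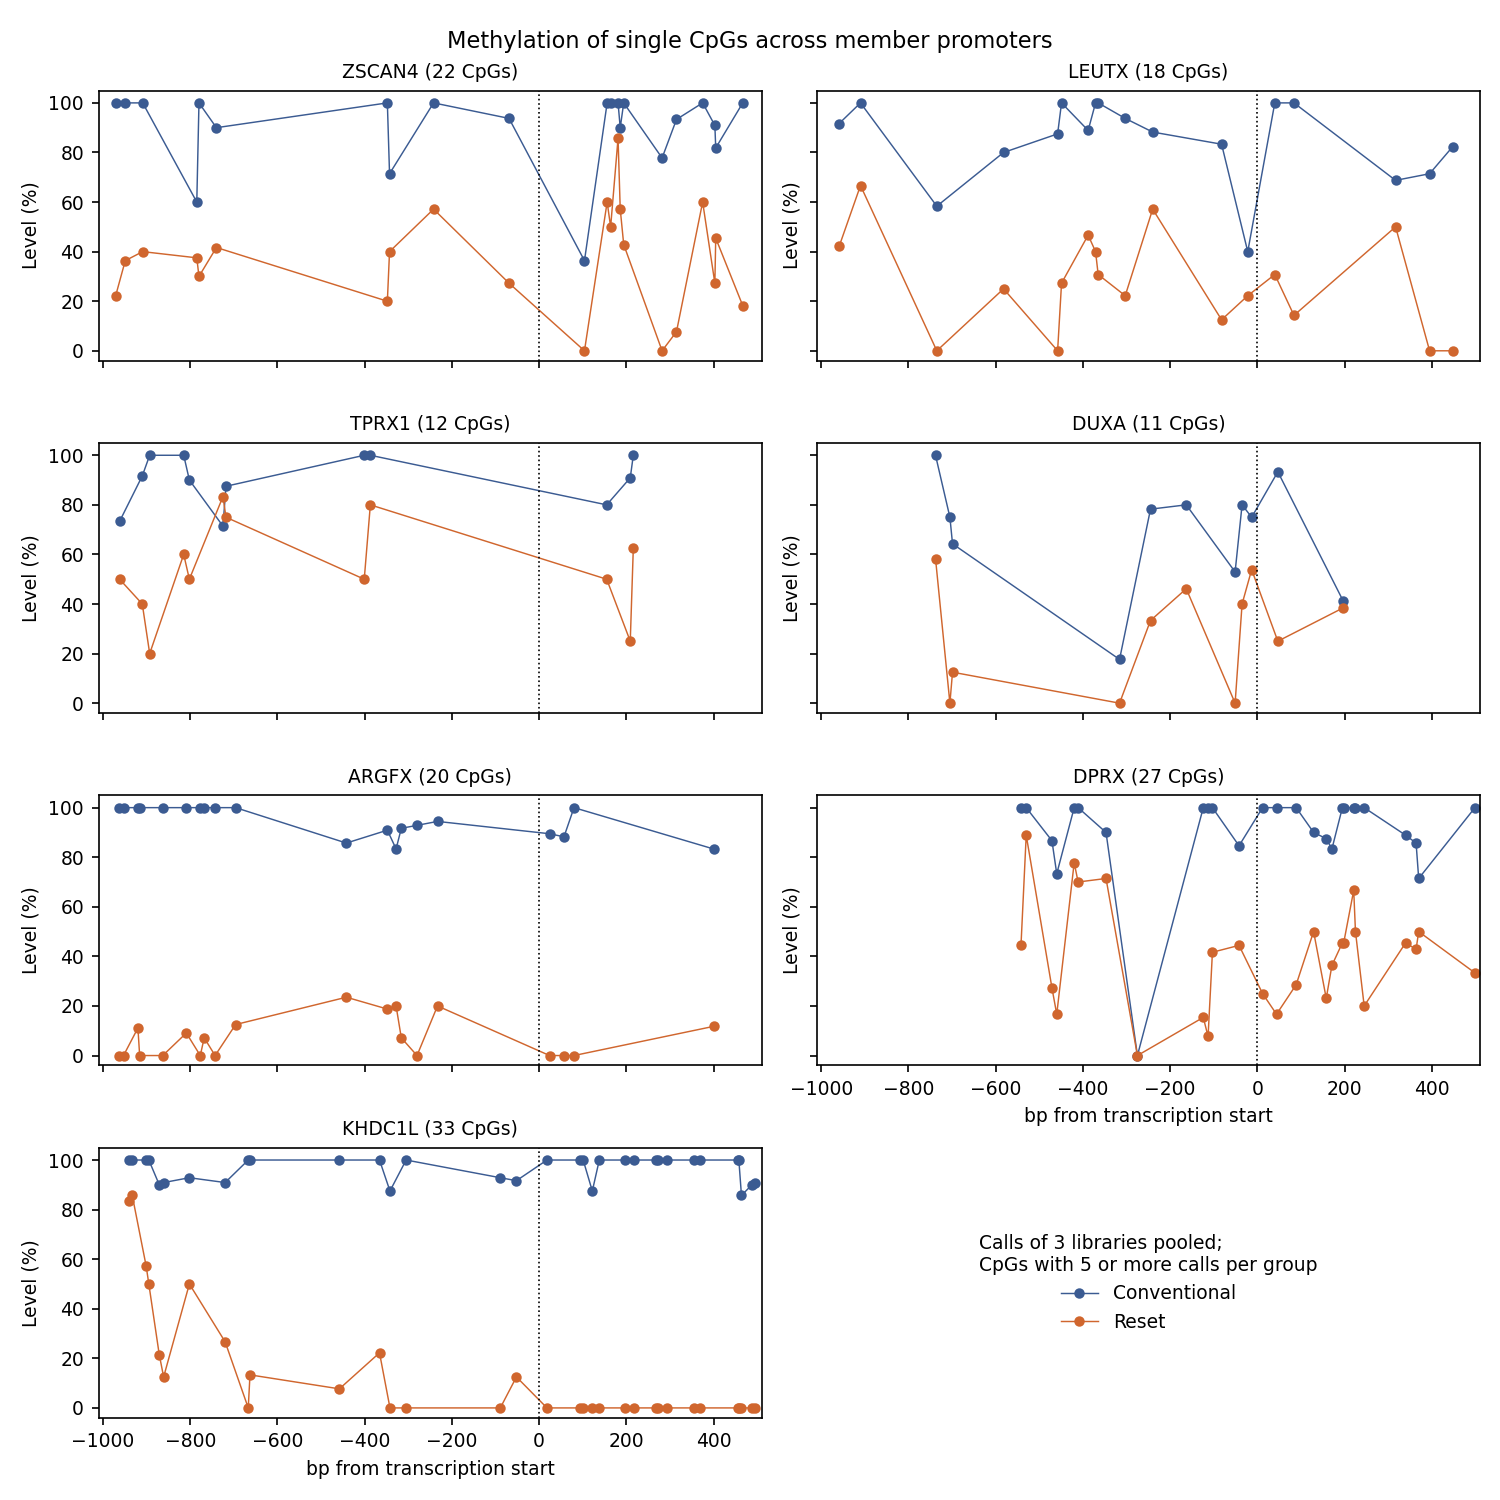
Methylation level (%) of single CpGs against the distance from the transcription start (bp, along the strand of the gene) in the 7 promoters, for conventional (blue) and reset (orange) cells, with the calls of 3 libraries pooled and CpGs with 5 or more calls in each group. KHDC1L falls from over 80% at its upstream end to 0% downstream of the start in reset cells, ARGFX stays at or below 23.5% throughout, and TPRX1 has no CpG under 10%.

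In the gene bodies, 7 of 8 genes could be tested and all 7 were lower in reset cells with no overlap between the groups. Over 19153 gene bodies, 97.8% were called lower and 97.7% had no overlap in that direction. The median over the 7 bodies went from 91.5% ± 0.625 to 35.8% ± 1.40 (two-sided exact permutation p = 0.1, the smallest possible). The genes lost a median of 55.1% of the conventional level, against 59.8% over the 18069 bodies at 50% or more.

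KHDC1L lost its body methylation nearly completely. Its conventional libraries stood at 98.4, 98.1 and 95.6% and its reset libraries at 1.2, 2.2 and 0.0%, a fall from 97.4% ± 1.57 to 1.13% ± 1.09 (adjusted p = 1.03e-15). Only 3 of 256 calls were methylated in the reset libraries together, against 297 of 304 in the conventional libraries. Of all 19153 bodies, 0 had a larger fall in percentage points. Among the 18069 bodies at 50% or more in conventional cells, 7 lost a larger share of their level. The exons of the body stood at 0.926% and its introns at 1.12% in reset cells. The body is short, with 45 CpGs and 68 to 129 calls per library.

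LEUTX came next. The LEUTX body stood at 88.9, 89.9 and 80.6% in conventional and at 9.9, 16.2 and 13.8% in reset cells, a fall from 86.5% ± 5.07 to 13.3% ± 3.18 (adjusted p = 5.17e-15) and a loss of 84.6%. Its exons had 6.66% ± 8.06 in reset cells and its introns 14.6% ± 2.23. The share lost by the LEUTX body was larger than in 96.8% of bodies at 50% or more.

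The bodies of TPRX1, DPRX and ARGFX were among those that kept the most. The TPRX1 body fell from 98.1, 94.0 and 91.2% to 68.6, 52.3 and 40.9%, a mean of 94.4% ± 3.46 against 53.9% ± 13.9 (adjusted p = 5.55e-08). The DPRX body fell from 91.0, 94.6 and 95% to 48.1, 48.6 and 53.6%, and the ARGFX body from 93.3, 92.2 and 93.4% to 48.4, 49.6 and 45.3%. Among the bodies at 50% or more, 0.653% were higher than TPRX1 in reset cells, 1.43% higher than DPRX and 2.53% higher than ARGFX. The TPRX1 body had 1.33 calls per CpG and library, under the median of 3.08, and 27.0% of its 50-base windows occurred more than once (33.3% with C read as T).

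ZSCAN4 and DUXA lay between. The ZSCAN4 body fell from 82.8% ± 1.26 to 28.6% ± 5.75 (adjusted p = 1.02e-14) and the DUXA body from 79.5% ± 0.298 to 35.7% ± 1.55 (adjusted p = 4.82e-16). The DUXA body, with 429 to 696 calls per library, had the smallest spread between libraries in conventional cells.

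Promoter and body were then compared within each library. In ARGFX, the promoter minus the body was -1.33, 1.87 and 2.29 points in the conventional libraries and -41.5, -41.7 and -35.4 points in the reset libraries (two-sided exact permutation p = 0.1, the smallest possible). Loss in ARGFX was thus deeper at the promoter. In KHDC1L and LEUTX it was deeper in the body. The differences were 19.2, 7.35 and 11.6 points in the reset libraries of KHDC1L and 14.2, 18.3 and 11.7 points in those of LEUTX. In both genes the conventional and reset libraries did not overlap in this difference (exact permutation p = 0.1 for each). For KHDC1L the difference lay in the 1000 bp upstream, at 24.6% in reset cells. Within 250 bp of its start the level was 0.926%, and in the 500 bp downstream 0%, against 1.13% in the body. For ZSCAN4, TPRX1, DUXA and DPRX the differences of the groups overlapped, with exact permutation p-values from 0.4 to 1.

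The surroundings were read in bins of 1 kb up to 20 kb on either side, to see whether the loss was local. Outside its promoter, the neighbourhood of ARGFX went from 93.3% to 34.4%, and that of KHDC1L from 92.7% to 33.7%. Both promoters were thus below their surroundings in reset cells. In the 20 kb on either side of TPRX1 the level went from 81.9% to 35.2%, below the 54.5% of its promoter. The surroundings of LEUTX (21.3% in reset cells), ZSCAN4 (29.0%), DUXA (32.2%) and DPRX (36.5%) were nearer to the levels of their promoters.

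For KHDC1L the 4 bins from the start to 4 kb downstream had means of 0, 2.19, 3.57 and 3.04% in reset cells and of 79.2 to 96.9% in conventional cells. The bin before the start had 24.6%, a mean over the unequal levels of the single CpGs described above, and the bin at 2 kb upstream 40.5%. It runs past the end of the gene, and the bin at 5 kb downstream was back at 37.2%. For ARGFX the bins on either side of the start had 9.05 and 11.2%, while the next bins outward had 28.3% upstream and 29.8% downstream. The highest bin, 10 kb into the gene, had 66.1%. A second stretch of loss lay 6 to 7 kb upstream of ARGFX, where the bins had 7.79 and 3.76% in reset cells against 83.9 and 88.1% in conventional cells.

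DPRX carried no such stretch at its start, where the bins had 40.5 and 43.2% in reset cells, but one lay at the far edge of its surroundings. The bins at 16, 17, 18 and 19 kb downstream had 0.846, 1.58, 5.03 and 4.08% in reset cells and at least 94.3% in conventional cells. TPRX1 had 54.5 to 57.2% in the 4 bins from 1 kb upstream to 3 kb downstream of its start, and 37.1 and 36.9% in the bins on either side of that run. Such levels were not confined to the start, since 8 of its 40 bins were at 50% or more. Bins 7 kb upstream and 18 kb downstream had 54.4 and 54.7%. The bin at the start stood at 80, 27.0 and 64.7% in the reset libraries, on as few as 10 calls. In LEUTX the lowest bin, at 3.46%, lay 5 kb into the gene. No bin around LEUTX was at 50% or more in reset cells, against 7 bins around ZSCAN4 and 9 around DPRX.

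**Figure D4:**
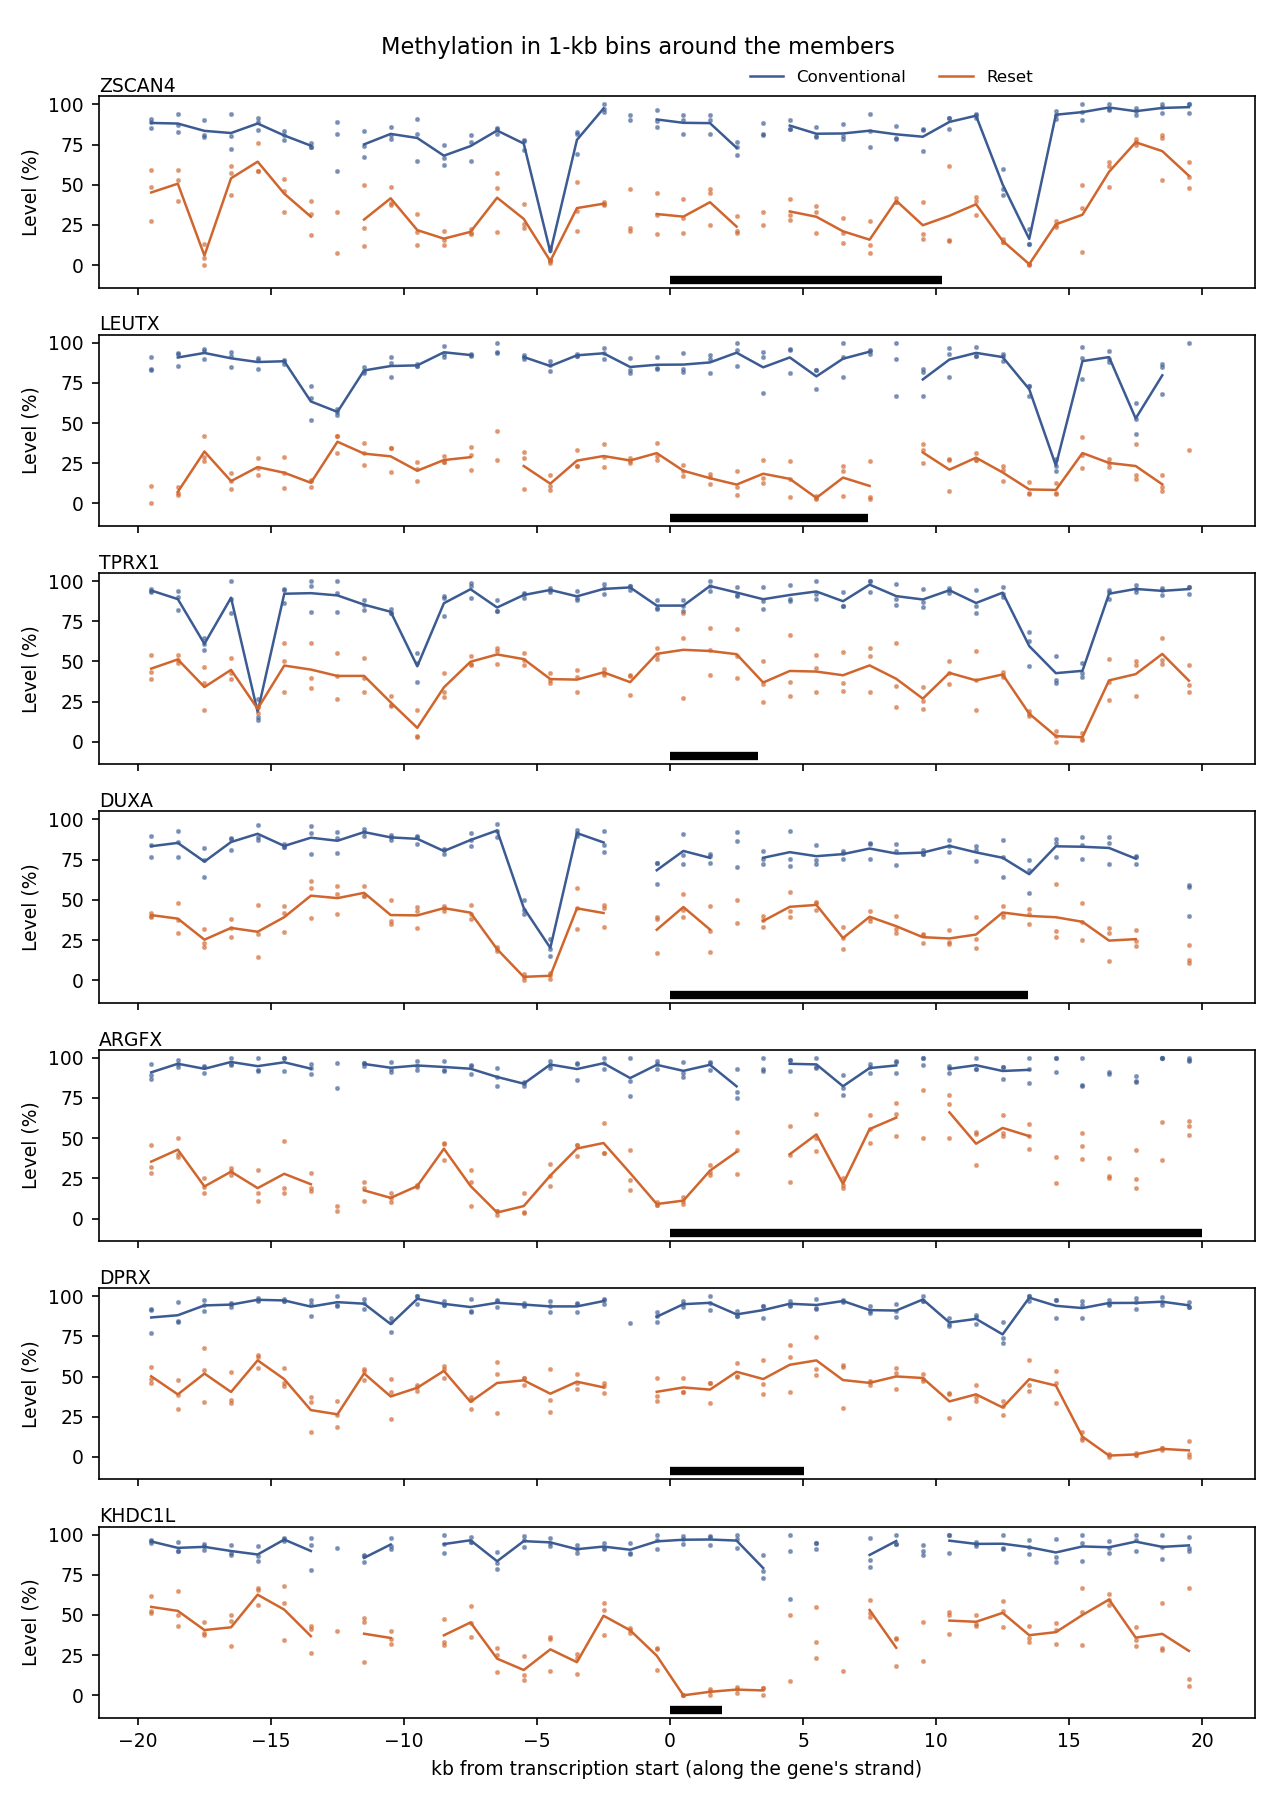
Methylation level (%) in 1-kb bins against the distance from the transcription start (kb, along the strand of the gene) for the 7 measured genes, with small points for single libraries, lines for the mean of 3 libraries (broken where a library had under 10 calls) and a black bar for the transcript. In reset cells (orange) KHDC1L drops to 0 to 3.57% over 4 bins from its start, ARGFX to 9.05 and 11.2% around its start, and DPRX to 0.846% at 16 kb downstream.

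Other annotated starts of the genes gave the following values, a description added after the data had been seen. The start of LEUTX 2259 bp upstream went from 91.3% to 29.5%, and that of KHDC1L 274 bp upstream from 96.2% to 19.9%. For ARGFX, a start 2765 bp downstream of the canonical start went from 82.3% to 41.5%, well above the canonical promoter, but on 3 CpGs. TPRX1 has a start 14500 bp upstream that went from 61.6% to 30.7%, lower in both groups than the canonical one. The DPRX start 31222 bp upstream went from 94.1% to 47.9%.

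MBD3L2 could not be measured. Its promoter, chr19:7048332-7049831, had 0 calls at all 25 CpGs in every library. In its body, 4 of 32 CpGs had a call, with 1 to 10 calls per library, too few for a level. Of the 50-base windows of its promoter, 99.0% occurred more than once in GRCh37, and 99.5% did so with C read as T. MBD3L4 and MBD3L3, the neighbours on either side at 9142 and 9355 bp, also had 0 calls. With C read as T, the share was 0.0345% in the promoter of LEUTX, 0.379% in DUXA, 11.0% in ARGFX, 15.1% in KHDC1L and 30.3% in DPRX. Methylation within 20 kb of MBD3L2, where calls were found, went from 77.4% ± 1.93 to 30.9% ± 5.66.

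The nearest coding promoters on either side were compared next. CRX, a homeobox gene of photoreceptors 17386 bp from TPRX1, went from 66.7% ± 4.77 to 37.3% ± 11.5 (adjusted p = 0.000673), and ZIM3, a zinc finger gene next to DUXA, from 82.8% to 46.5%. CLC, on one side of LEUTX, went from 82.2% to 14.9%, and ENSG00000291312 on the other from 92.6% to 44%. The neighbours of DPRX start 93854 and 192315 bp away. Both lost a larger share of their level than the 57.2% of the DPRX promoter, at 95.6 and 89.8%. ZNF331, an imprinted gene, fell from 47.5% to 2.09% and NLRP12 from 92.6% to 9.49%.

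The other zinc finger genes beside ZSCAN4 and DUXA began lower than ZIM3. ZNF211 went from 22.2% to 9.74% and ZNF551 from 24.8% to 8.02% beside ZSCAN4, and ZNF264 from 24.8% to 7.30% beside DUXA. SELENOW beside TPRX1 fell from 9.53% to 2.57%, FBXO40 beside ARGFX from 34.9% to 12.3% and KHDC1 beside KHDC1L from 22.8% to 6.30%. POLQ beside ARGFX and KCNQ5, 603427 bp away on the other side of KHDC1L, were at 2.05% or less in both groups and did not pass the test.

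A list of 35 other genes of genome activation was read in the same way. In the annotation 34 of them were found, all but CPHX1, and 25 had enough calls. Of these, 21 were lower in reset cells, 2 were higher and 2 did not pass the test, beside 67.4% lower and 3.98% higher over all promoters. All 19 that were at 50% or more in conventional cells fell, as did 99.2% of such promoters in general. The median of the 25 went from 78.8% to 27.7%. The 9 genes with too few calls were TRIM43, TRIM49, TRIM49B, TRIM49C, PRAMEF2, PRAMEF20, MBD3L3, MBD3L4 and MBD3L5, and between 37.3 and 96.6% of their 50-base windows occurred more than once. Among the 25 tested promoters this share ran from 0% in KLF17 and others to 62.0% in TRIM43B and 70.6% in UBTFL1. Some of the tested promoters thus hold much repeated sequence as well.

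The largest falls in this list were those of NANOGNB, ZNF280A and KLF17. NANOGNB, a homeobox gene next to NANOG, went from 94.0% ± 2.45 to 21.8% ± 5.09 (adjusted p = 1.44e-07). ZNF280A went from 75.8% ± 1.5 to 7.68% ± 5.50, and KLF17, a Krüppel-like factor of the early human embryo, from 96.2% ± 2.44 to 28.5% ± 5.12. The homeobox genes most like those of the set by name, TPRX2 and DUXB, went from 85.3% to 39.7% and from 87.0% to 37.7%, and they were picked out after their values had been seen.

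Methylation rose at RFPL2 and CCNA1. RFPL2 stood at 14.1, 13.2 and 16.7% in conventional cells and at 31.1, 33.9 and 31.1% in reset cells (14.7% ± 1.80 and 32.0% ± 1.63, adjusted p = 0.000223). RFPL1 and RFPL3 of the same family fell, from 91.7% to 44.1% and from 80.8% to 23.5%. CCNA1, a cyclin of the germ line, stood at 1.16% ± 0.370 and 5.33% ± 2.96 (adjusted p = 0.00705), a low level in both groups. SLC34A2 (12.5 and 15.1%) and RBP7 (11.9 and 11.4%) did not pass the test.

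Relatives of the genes by family or position made up a list of 16, of which 13 were lower in reset cells, 1 was higher and 2 did not pass the test, beside 67.4% lower and 3.98% higher over all promoters. With promoters of 500 bp on either side of the start, 8 of the 16 were lower, beside 7489 of 18916 coding promoters with the same bounds. The median of the list was 13.1% in conventional and 3.79% in reset cells, and 6 of the 16 were at 50% or more in conventional cells. The largest falls were at DPPA5, from 98.1% ± 1.68 to 1.43% ± 1.43, at KHDC3L, from 95.2% ± 1.88 to 3.41% ± 0.303, and at ZSCAN1, from 97.1% ± 0.257 to 10.3% ± 1.74 (adjusted p from 2.90e-11 to 4.79e-10). DPPA5 and KHDC3L are KH-domain genes that lie 128.78 and 137.162 kb from the start of KHDC1L. OOEP, a KH-domain gene of the oocyte 144.401 kb away and named here after its value was seen, went from 94.9% to 8.53%. KHDC1L and these 3 genes of its cluster were thus all methylated in conventional cells and at 13.8% or less in reset cells, while KHDC1, nearer to KHDC1L, began at 22.8%.

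The other families of the set differed. OTX2, a homeobox gene of the same class as ARGFX and DPRX, was the relative that was higher, at 2.43% ± 1.62 in conventional and 12.1% ± 0.672 in reset cells (adjusted p = 0.000236). OTX1 and MBD4 did not pass the test, at 0.60 and 1.55% and at 1.44 and 0.197% (adjusted p = 0.0504 for MBD4). MBD2, MBD3 and MBD3L1 fell from between 12.5 and 13.3% to between 3.02 and 5.71%. MBD1 passed the test (adjusted p = 0.0196) with overlapping groups, at 23.2, 12.4 and 7.09% in conventional and 5.44, 7.25 and 4.51% in reset cells, Conventional replicate 1 being the highest. With each library left out in turn, the count of lower relatives was between 12 and 14 in place of 13.

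By likeness, the 5 coding promoters nearest to the mean levels of the 7 genes over the 6 libraries were CLIC2, CD3D, GPR84, SPINK9 and IL9R, at root mean square distances of 2.07 to 2.28 percentage points. All 5 hold 27 or fewer CpGs.

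Short motifs were searched in the 8 promoters on both strands. TAATCC, a site of homeodomains with a lysine in the recognition helix such as those of OTX2 and CRX, occurred in 7 of 8 promoters, DUXA being the exception, and in 44.7% of all coding promoters of the same length. The 8 promoters had a GC content of 37.7% (DUXA) to 56% (TPRX1), below the median of 57.2% over all coding promoters. No background of like base composition was searched, so the part of composition in these shares was not tested. ZSCAN4 had 6 matches, MBD3L2 4, TPRX1, ARGFX and DPRX 3 each, KHDC1L 2 and LEUTX 1. TGCACAC, a motif bound by ZSCAN4, occurred once each in TPRX1 and KHDC1L and in 17.7% of all promoters. The motifs do not overlap each other in sequence, and a match is a run of letters, not a site shown to be bound.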

How the data were processed

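Reads of bisulfite-treated DNA were trimmed by the authors (Trim Galore) and mapped to GRCh37 (Bismark). The submitters' processing notes name Bismark 0.9.0 with Bowtie2, and the study's methods name another version of Bismark. Removal of duplicate reads is not given in the sources used here. The deposited files hold, for each CpG cytosine, counts of methylated and unmethylated calls and the percent methylated as computed by the authors, with no normalization. The percent column matched the counts at every position and was used only for that check.

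Positions were found to be counted from 0, and calls on both strands of a CpG were summed over the 27999103 CpGs of chromosomes 1 to 22 and X. Genes came from GENCODE release 44 on GRCh37, with 1 canonical transcript per gene. Regions with 10 or more calls in every library were fitted with a quasi-binomial logistic model over all 6 libraries, a two-sided likelihood-ratio F test and a dispersion squeezed with limma 3.58.1 in R 4.3.3 and kept at 1 or more. P-values were adjusted over all coding promoters, or over all bodies, after Benjamini and Hochberg, and 0.05 was the threshold. Single values per library were compared with an exact permutation test in SciPy 1.17.1. On simulated calls in which only 200 of 19300 promoters changed, 24.5% of falls of 20 points and 94.5% of falls of 40 points were recovered. For 200 of 19153 bodies 85.5 and 99.5% were recovered. In the data 67.4% of promoters were called lower, and the adjustment is less strict where so many change. The simulated shares are therefore not the shares of falls found or missed in the data.

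The replicate numbers shared by the groups did not enter the main model. Deviations of libraries with the same number correlated at 0.00775, 0.0124 and 0.00981, and those with unlike numbers at -0.0166 to 0.0071. Values this small do not settle whether the libraries were paired. All 8 genes were named. So were the nearest coding gene on either side of each, the promoters of the other lists that rose or had one of the 3 largest falls, and the 5 promoters most alike in level. The genes, the lists and the tests were chosen with earlier results of these data known. Promoter sequences are not reported here. Uniqueness was counted over 50-base windows of both strands of GRCh37. Intervals and limits cover counting error only, with each call taken as independent.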

Additional observations from a re-analysis of the deposited data

How the results depend on the processing

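The fall of each measured gene kept its direction and its side of the threshold in all 196 alternatives run for single genes. These were minimums of 5 and 20 calls, each library left out in turn, Fisher's exact test on pooled calls, limma on log ratios, CpGs over 30 calls left out, other promoter bounds, the mean of single CpGs and the whole gene span. The call minimums, Fisher's test, limma on log ratios, the block below and the cut at 30 calls left every level of the genes unchanged. Only p-values could move there. With limma on log ratios, which takes 1 value per library, the adjusted p-value rose for every measured body. It rose from 4.82e-16 to 7.55e-08 in DUXA and from 1.03e-15 to 8.86e-07 in KHDC1L. Every measured promoter or body had 32 or more calls per library, so the minimums removed none. Fisher's test counts calls and not libraries. As 99.2% of promoters at 50% or more were called lower, the count of 196 adds little for single genes. Over the 196 alternatives, the promoter change ranged from -48.4 to -22.8 points in TPRX1, the least stable, and from -89.2 to -78.1 points in ARGFX. With the replicate number as a block, all 7 promoters and all 7 bodies were still lower, with 12353 coding promoters lower and 638 higher in place of 13004 and 768, and with 18726 bodies lower. The block changed no call of the genes, but it raised the adjusted p-value of every measured promoter. It rose from 9.74e-09 to 0.0015 in ARGFX and from 0.000948 to 0.0154 in TPRX1. Every library correlated best with its own number, a hint from the data and not from the design, at correlations of 0.0124 or less. With promoters of 500 bp on either side of the start, 8 relatives were lower in place of 13, and 7489 of 18916 coding promoters in place of 13004 of 19300. With 2000 bp upstream, 2 relatives were higher in place of 1, and 474 coding promoters in place of 768. The cause was not tested.

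Depth limits what can be said of single CpGs, since 2.51 to 3.49 calls per CpG and library leave each value coarse. TPRX1 and DUXA rest on the fewest calls per promoter, at 32 and 36 in their lowest libraries. No level can be given for MBD3L2. Fewer methylated cells and fewer methylated copies per cell cannot be told apart in these bulk libraries.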
